A study of Rattus norvegicus with 8 samples.

Results

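GABA, the main inhibitory transmitter of the hippocampus, was followed here through 7 rat genes: the synthetic enzymes Gad1 and Gad2, the vesicular transporter Slc32a1, the plasma membrane transporter Slc6a11, the breakdown enzyme Abat and the receptor subunits Gabbr1 and Gabbr2. They are 7 of the 11565 genes that the array's probes could be matched to by name. Every probe that the array files assign to 1 of them was taken, whatever its values, which gave 9 of the 15207 rat probes on the array. Gabbr1 and Gabbr2 each had 2 probes and the other 5 genes had 1. Both Gabbr2 probes carry the same sequence at different places on the array. All 9 probes were well above background on all 8 arrays, and 0 were saturated on any.

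The samples were whole hippocampi of rats aged 2 months. In the PNFLX group the pups had been dosed with 10 mg/kg of fluoxetine, an antidepressant that blocks serotonin reuptake, between postnatal days 2 and 21. In the control group the pups had received the vehicle, a sucrose solution of 5%, over the same days. Each group held 4 samples, and each sample was hybridised to 1 single-colour array. The question was which hippocampal transcripts differ in young adulthood after this early exposure. The labels do not say that each sample came from a separate animal, so the p-values measure the spread between these samples, which may be technical.

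GABA is made from glutamate by glutamic acid decarboxylase, packed into vesicles, released, taken back up by neurons and astrocytes, and broken down by GABA transaminase. In the hippocampus it is released mainly by local interneurons. It acts on GABA-A receptors, which are chloride channels, and on GABA-B receptors, which signal through inhibitory G proteins to potassium and calcium channels. A working GABA-B receptor is a pair of the Gabbr1 protein, which binds GABA, and the Gabbr2 protein, which couples to the G protein. In pieces of tissue such as these, fewer cells of a type and less RNA per cell cannot be told apart.

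The probe sequences are given first, because the measurements of a gene with several probes turn on them. The Gabbr2 sequence is shown because 2 copies of it were measured, that of Slc32a1 because its group difference changed sign with the signal used, that of Slc6a11 because its difference did not, and those of Gabbr1 because they read different stretches of 1 gene. For Slc32a1, the first Gabbr1 probe and Gabbr2 a 30-base stretch of the 60-base probe is printed, which for Slc32a1 runs from base 6 to base 35. Capitals mark runs of at least 4 G.
Slc32a1: aacttgaccttGGGGGtGGGGtGGGGGaca
Slc6a11: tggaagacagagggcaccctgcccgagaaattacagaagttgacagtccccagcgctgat
Gabbr1, spot row 31: tctcggtgccattacgttctgtgggcttcc
Gabbr1, spot row 113: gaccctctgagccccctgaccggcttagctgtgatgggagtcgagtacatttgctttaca
Gabbr2, spot rows 181 and 190: GGGGGaaaaatgtcaacacatcacaggtca
The Slc32a1 probe held 3 such runs, and the Abat and Gabbr2 probes held 1 each. Of all 15207 probes, 9.8% held at least 1.

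The positions are those of the array files, on rat build rn4, and no exon or UTR annotation of that build was used. The probes of Gad1 (chr3:52725286-52725345) and Slc32a1 (chr3:149252692-149252751) lay on the plus strand, as did that of Gad2 (chr17:96332395-96332454). The Slc6a11 probe lay at chr4:150440112-150440919 on the plus strand, so its 60 bases span 808 bases of genome. The Abat probe lay at chr10:7047983-7048042 on the minus strand. The Gabbr1 probes, at chr20:1554880-1554939 and chr20:1554609-1554668, and the Gabbr2 sequence, at chr5:63242237-63242297, were also on the minus strand. GC content was lowest in the Gad1 probe, at 30%, and between 43.3% and 55% in the others. The Gabbr1 probe of row 31 was assigned by the files to a transcript described as receptor form 1d, and that of row 113 to the gene's reference transcript.

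The 75th percentile of signal was 873 to 941 on the PNFLX arrays and 654 to 880 on the control arrays, so the PNFLX arrays tended to be brighter. On the 8 arrays 70.5% to 77.9% of probes were well above background. Values are given as log2 signal relative to that percentile of the same array. Probes differ in brightness for the same amount of RNA, so summed signals of marker lists weight bright probes most. All 8 arrays lay on 1 slide, the PNFLX samples in 1 slide row and the controls in another, and an effect of slide row cannot be told apart from that of treatment. Each array has 192 spot rows. The log2 difference between the groups had a median of 0.75 over the 267 tested probes of the first 5 spot rows and of -0.79 over the 277 of the last 5, against -0.05 over the 9310 of rows 21 to 172. Abat was in row 3, Slc32a1 in row 6 and Gabbr2 in rows 181 and 190, while the other 5 probes were in rows 31 to 114. Markers of glutamatergic neurons, the main cells of the hippocampus, were measured for all 7 of the 10 listed genes that are on the array, with a summed signal of 66.5 to 74.2 times the 75th percentile in PNFLX and 77.1 to 103 times in controls. Of the 7, 3 were higher and 4 lower in PNFLX, with a median difference of -0.08 and 0 past the threshold. The bright spot of Nrgn, in row 19, makes up most of that sum and was lower by a log2 difference of -0.54 (SE 0.15, adjusted p = 0.18). It was named after its values were seen. Markers of choroid plexus summed to between 0.395 and 2.75 times in PNFLX and between 0.237 and 36.2 times in controls, where control 4 stood apart from the other 3. Those of meninges and fibroblasts summed to 18.0 to 45.0 times in PNFLX and 14.4 to 19.2 times in controls, with PNFLX 1 the highest of the 8. Of these 9 markers 8 were higher in PNFLX, with a median difference of 0.43 and 0 past the threshold. An unadjusted p under 0.05 was reached by 2 of the 9, against 12.5% of all probes. They were Col3a1 at 0.79 (SE 0.32) and Bgn at 0.57 (SE 0.23). Bgn was above every control in all 4 PNFLX samples and Col3a1 in 3, and both were named after their values were seen. The part of this tissue in the values of the GABA genes was not tested.

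None of the GABA genes passed the test between the groups. Of the 9 probes, 4 were higher in PNFLX and 5 lower, while 45.5% of all 11600 probes tested were higher. The median log2 difference was -0.03, as it was over all probes tested. The test was limma, a linear model whose variances are shared across probes, with p adjusted over all of them. A total of 0 of the 9 passed the threshold of 0.05, against 0.672% of all probes, of which 0.371% were higher in PNFLX and 0.302% lower. That share rests on 78 calls. Of them 33 lay among the 267 probes of the first 5 spot rows and 20 among the 277 of the last 5. Rows 21 to 172, which hold 5 of the 9 GABA gene probes, had 9 calls among 9310 probes. At an unadjusted p under 0.05 there were 2 of the 9 probes, Slc32a1 and Slc6a11, both lower in PNFLX, against 12.5% of all probes in either direction and 7.4% in that direction. For 1 of the 9, Slc32a1, the groups did not overlap, as for 10.7% of all probes in either direction and 6.41% in that direction. With 4 arrays a group the number of arrays limits the precision, and the 95% intervals given with each gene show that precision.

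**Figure D1:**
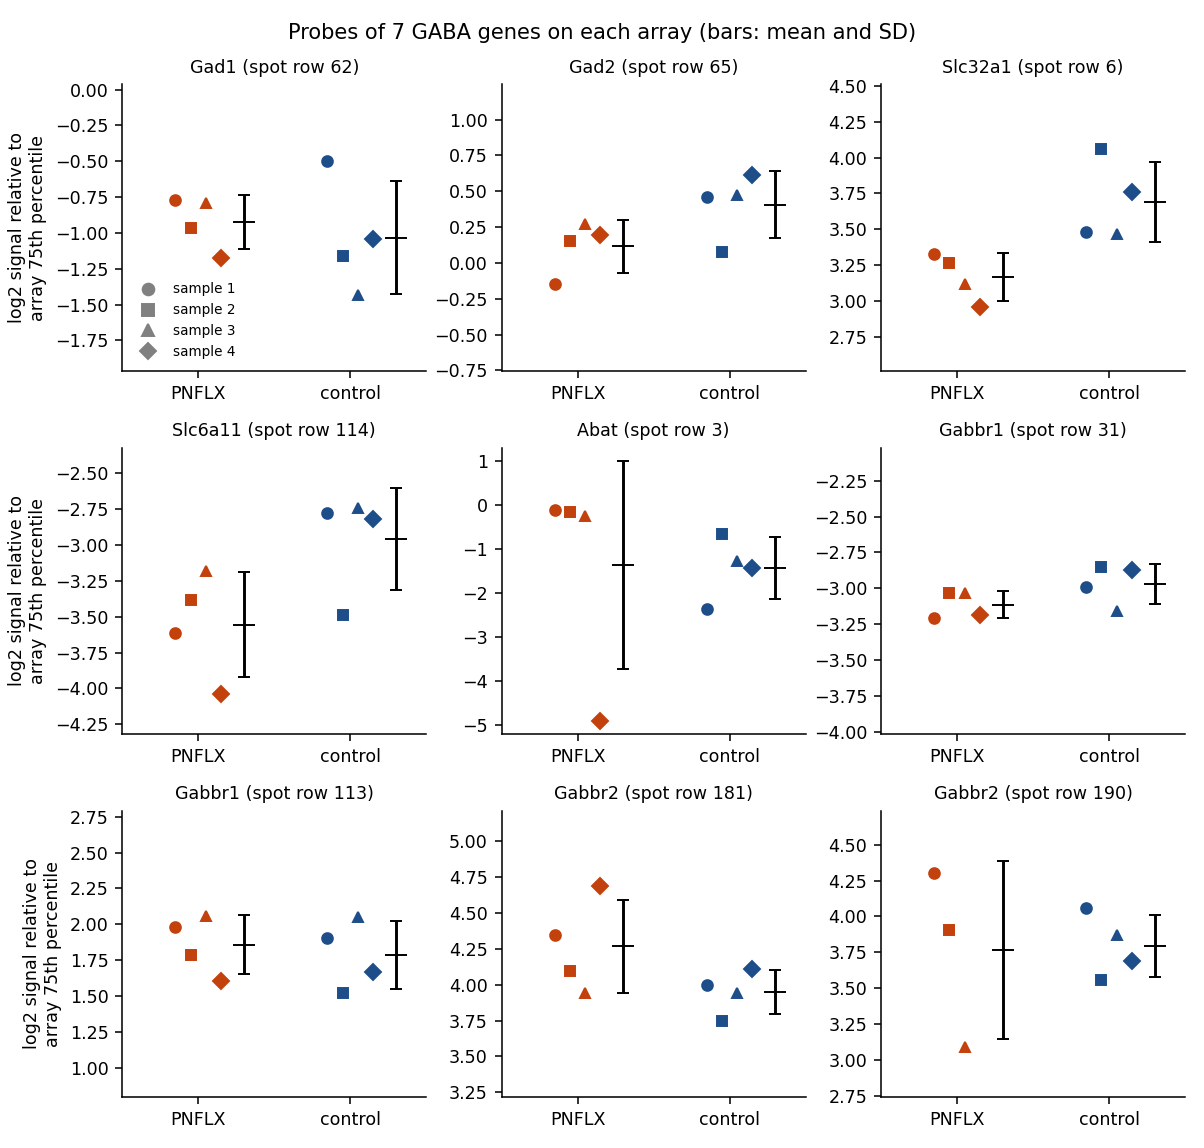
Log2 signal of each of the 9 probes relative to the array's 75th percentile, with PNFLX samples on the left and control samples on the right of each panel. Symbols number the samples and bars give the mean and SD. The groups separate for Slc32a1, PNFLX 4 lies far below the other samples for Abat, and the remaining panels overlap. The Gabbr2 spot of row 190 has 3 PNFLX values because 1 carried an outlier flag.

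Synthesis came first in the pathway. Gad1 encodes the decarboxylase that makes most GABA in brain, and Gad2 the form that is concentrated at nerve terminals. Gad1 had values of -0.77, -0.97, -0.79 and -1.18 in PNFLX 1 to 4, against -0.50, -1.16, -1.43 and -1.04 in controls 1 to 4. The PNFLX samples all lay within the range of the controls, and control 1 was the highest of the 8. The means were -0.93 ± 0.19 in PNFLX and -1.03 ± 0.39 in control (SD, n = 4 each), a log2 difference of 0.11 (SE 0.21, 95% interval -0.38 to 0.59, adjusted p = 0.856).

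Gad2 had values of -0.15, 0.15, 0.27 and 0.20 in PNFLX 1 to 4, against 0.46, 0.07, 0.47 and 0.62 in controls 1 to 4. Of the PNFLX samples 1 was below every control, and the other 3 lay above control 2 and below the other controls. The means were 0.12 ± 0.18 in PNFLX and 0.41 ± 0.23 in control (SD, n = 4 each), and the log2 difference was -0.29 (SE 0.16, 95% interval -0.66 to 0.09, adjusted p = 0.513). The interval runs from a level in PNFLX of 0.631 times that of control to 1.06 times.

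Whether both enzymes moved apart was asked within each array, where scaling has no part. The Gad1 probe minus the Gad2 probe was -0.62, -1.12, -1.06 and -1.37 in PNFLX 1 to 4, against -0.96, -1.23, -1.90 and -1.66 in controls 1 to 4. The groups overlapped, with a difference of 0.39 (exact two-sided permutation test over 70 splits, p = 0.2, and 0.486 after adjustment over the 5 within-array comparisons made). With 4 samples a group that test can reach 0.0286 at the lowest.

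Slc32a1 encodes the vesicular transporter that fills synaptic vesicles with GABA and glycine and so marks inhibitory terminals. Its values were 3.33, 3.27, 3.12 and 2.96 in PNFLX 1 to 4, against 3.48, 4.06, 3.47 and 3.76 in controls 1 to 4. Every PNFLX sample lay below every control. The means were 3.17 ± 0.16 in PNFLX and 3.69 ± 0.28 in control (SD, n = 4 each), a log2 difference of -0.52 (SE 0.17, 95% interval -0.92 to -0.13), or 1.44-fold lower in PNFLX. The unadjusted p of 0.0159 became 0.275 after adjustment over all probes. The difference was -0.50 without control 4 and -0.58 without PNFLX 1, the samples highest in choroid plexus and meningeal markers.

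The direction of that difference turned with the signal used. The processed signal of the files is the scanner's mean brightness of a spot after background subtraction and a correction for trends across the array. Before scaling, the mean brightness of the Slc32a1 spot was 7268, 8243, 7792 and 7406 in PNFLX 1 to 4, against 5436, 7100, 5431 and 4917 in controls 1 to 4. Every PNFLX sample thus lay above every control, on arrays that tended to be brighter. The ratio of processed signal to mean brightness was 0.974 to 1.27 in PNFLX and 1.45 to 2.07 in controls for this spot. For 4 bright probes of the same spot row its median was 0.982 to 1.33 on the PNFLX arrays and 1.59 to 1.78 on the control arrays.

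With mean brightness scaled to the array's 75th percentile, a setting chosen after seeing the data, Slc32a1 had values of 2.93, 3.08, 3.08 and 2.94 in PNFLX, against 2.88, 2.98, 2.77 and 2.83 in controls. The groups then overlapped, with a log2 difference of 0.14 (SE 0.10, adjusted p = 0.467). With row and column medians subtracted the difference was -0.63 (SE 0.19, adjusted p = 0.325). The 53 other tested probes of spot row 6 had a median difference of 0.28 on the processed signal. Within each array, Slc32a1 minus Gad1 was 4.10, 4.23, 3.91 and 4.13 in PNFLX and 3.98, 5.22, 4.90 and 4.80 in controls. The groups overlapped through control 1, with a difference of -0.63 (exact permutation test, p = 0.114, adjusted 0.486).

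**Figure D2:**
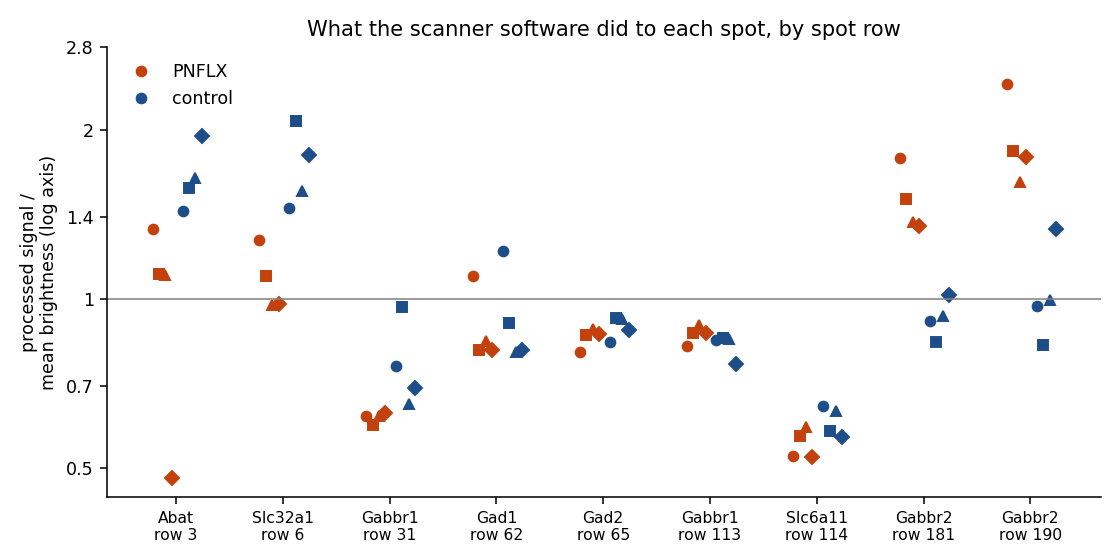
Ratio of the processed signal to the mean brightness of each spot, on a log axis, for the 9 probes ordered by spot row, with PNFLX left of control and symbols numbering the samples. The groups overlap in rows 62, 65, 113 and 114. In rows 3, 6 and 31 the PNFLX ratios are below the control ratios, and in rows 181 and 190 they are above them.

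Markers of interneurons, cells that express Slc32a1, Gad1 and Gad2, were measured beside these genes. Of 18 listed genes on the array 17 were measured, 14 of them on all 8 arrays, and 8 were higher and 9 lower in PNFLX, with a median difference of -0.01 and 0 past the threshold. An unadjusted p under 0.05 was reached by 4 of the 17, against 12.5% of all probes, and these 4 were named after their values were seen. Calb1, a calcium-binding protein, was higher in PNFLX by a log2 difference of 0.36 (SE 0.13, adjusted p = 0.332), with no overlap. Which cells of the whole hippocampus its RNA came from was not tested. Lower in PNFLX were the transcription factors Dlx1, at -0.61 (SE 0.26, adjusted p = 0.379) with no overlap, and Dlx5, at -0.52 (SE 0.22, adjusted p = 0.371). The neuregulin receptor Erbb4 was also lower, at -0.65 (SE 0.25, adjusted p = 0.33). Its probe was dim and well above background on only 4 of 8 arrays, the fewest that the filter allows. The summed signal of the list ran from 89.7 to 142 times the 75th percentile in PNFLX and from 80.5 to 115 times in controls. Sst, the peptide somatostatin of dendrite-targeting interneurons, had a log2 difference of -0.03 (SE 0.27). Pvalb, the calcium-binding protein of fast-spiking interneurons, was in spot row 7 and had 0.04 (SE 0.15) on the processed signal. On mean brightness Pvalb was higher in PNFLX by 0.50 (SE 0.11, adjusted p = 0.0368). In that setting, chosen after seeing the data, 450 of the 11600 probes passed, against 78 on the processed signal. With row and column medians subtracted Pvalb was at -0.21. Sst passed under none of its 24 alternatives. The part of interneuron number in the values of the GABA genes was not tested.

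Uptake from the extracellular space is served by plasma membrane transporters, of which Slc6a11 is found in astrocytes. Slc6a11 had values of -3.62, -3.39, -3.18 and -4.04 in PNFLX 1 to 4, against -2.78, -3.49, -2.74 and -2.82 in controls 1 to 4. The PNFLX samples lay below 3 of the controls, while control 2 was within the PNFLX range. The means were -3.56 ± 0.37 in PNFLX and -2.96 ± 0.35 in control (SD, n = 4 each). The log2 difference was -0.60 (SE 0.24, 95% interval -1.15 to -0.05), or 1.51-fold lower in PNFLX, with an unadjusted p of 0.0364 and an adjusted p of 0.362.

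The Slc6a11 probe lay in row 114, near the middle of the array, where the 67 other tested probes of its row had a median difference of -0.04. Its log2 difference was below 0 under all 24 alternatives, from -0.93 to -0.30, with adjusted p from 0.214 to 0.613. Alternatives that changed only the filter, the variance model or the block left it at -0.60 by construction, so their sign adds nothing. The -0.93 came with normexp, and without control 1, which stood apart in that setting, it was -0.43. On the processed signal the difference was -0.55 without control 4 and -0.58 without PNFLX 1. On mean brightness it was -0.47 (SE 0.19). Its signal was low, at 56.8 to 96.2 units in PNFLX and 78.6 to 114 in controls before scaling.

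Astrocyte markers were measured for 11 of the 12 listed genes, of which 4 were higher and 7 lower in PNFLX, with a median difference of -0.19 and 0 past the threshold. Their summed signal ran from 54.9 to 80.6 times the 75th percentile in PNFLX and from 76.5 to 85.6 times in controls. The lowest sum was that of PNFLX 1, where the bright probe of Aldoc read 3.45. In PNFLX 2 to 4 Aldoc read 4.91, 4.94 and 4.68, and in controls 4.67 to 5.09. Aldoc was named after its values were seen. All 10 oligodendrocyte markers were lower in PNFLX, with a median of -0.28 and 0 past the threshold. The part of these cell types in the Slc6a11 value was not tested.

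Breakdown of GABA begins with Abat, the mitochondrial GABA transaminase. Abat had values of -0.12, -0.16, -0.26 and -4.90 in PNFLX 1 to 4, against -2.37, -0.67, -1.28 and -1.42 in controls 1 to 4. In PNFLX 1 to 3 it was above every control, and in PNFLX 4 it was below all of them. The means were -1.36 ± 2.36 in PNFLX and -1.43 ± 0.71 in control (SD, n = 4 each). The log2 difference was 0.07 (SE 1.05, 95% interval -2.34 to 2.48, adjusted p = 0.982), which runs from a level in PNFLX of 0.198 times that of control to 5.59 times.

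A single sample decided this value. Without PNFLX 4 the log2 difference of Abat was 1.25 (adjusted p = 0.239), and the groups then did not overlap. The mean brightness of the spot was 636, 764, 664 and 64.8 in PNFLX 1 to 4, against 95.1, 352, 193 and 125 in controls 1 to 4, so PNFLX 4 was also the lowest before the scanner's corrections. The spot lay in row 3, where the 57 other tested probes had a median difference of 0.82, and with row and column medians subtracted the difference of Abat was -0.99 (SE 0.91). The next enzyme, Aldh5a1, which turns the product of Abat into succinate, was in row 128 and had a difference of -0.05 (SE 0.23, adjusted p = 0.944).

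Other genes of GABA synthesis, transport and breakdown formed a list of 10, all on the array, of which 9 were measured. A total of 3 were higher and 6 lower in PNFLX, with a median of -0.06 and 0 past the threshold or past an unadjusted p of 0.05. The lowest p belonged to Sv2a, a synaptic vesicle protein, at -0.44 (SE 0.27, adjusted p = 0.538), with PNFLX 3 at 1.85 and PNFLX 4 at 2.47 below every control. Genes that supply glutamate and glutamine, the precursors of GABA, were 14, of which 7 were higher and 7 lower, with a median of -0.01 and 0 past the threshold. Gls2, a glutaminase, had 2.61, 1.99, 1.98 and 2.14 in PNFLX, against 1.55, 1.79, 1.85 and 1.75 in controls. Its groups did not overlap, and its log2 difference was 0.45 (SE 0.17, adjusted p = 0.348), but on mean brightness it was -0.10 (SE 0.13). The spot was in row 176, and the cause of the turn was not tested. Got2, the mitochondrial aspartate aminotransferase, was lower by a log2 difference of -0.49 (SE 0.22, adjusted p = 0.41).

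The GABA-B receptor came next, beginning with the subunit that binds GABA. The Gabbr1 probe of row 113 had values of 1.98, 1.79, 2.06 and 1.60 in PNFLX 1 to 4, against 1.91, 1.52, 2.05 and 1.67 in controls 1 to 4. The groups covered almost the same range. The means were 1.86 ± 0.21 in PNFLX and 1.79 ± 0.24 in control (SD, n = 4 each), a log2 difference of 0.07 (SE 0.17, 95% interval -0.32 to 0.46, adjusted p = 0.881).

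The Gabbr1 probe of row 31, assigned to form 1d, had values of -3.20, -3.03, -3.03 and -3.18 in PNFLX, against -2.99, -2.85, -3.16 and -2.88 in controls. Of the PNFLX samples 2 lay below every control, and the other 2 lay between control 3 and the rest. The log2 difference was -0.14 (SE 0.13, 95% interval -0.43 to 0.15, adjusted p = 0.662), and it was 0.16 (SE 0.12) on mean brightness. The within-array difference between both Gabbr1 probes was 4.97 ± 0.20 in PNFLX and 4.76 ± 0.37 in control (SD, n = 4 each), which left 0.22 between the groups (exact permutation test, p = 0.371, adjusted 0.486). A probe that the files assign to no gene name, and whose description reads as receptor form 1g, had a log2 difference of 0.09 (SE 0.18, adjusted p = 0.864).

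Gabbr2, the subunit that carries the G protein signal, was read by the same sequence in rows 181 and 190. In row 181 its values were 4.35, 4.10, 3.94 and 4.69 in PNFLX 1 to 4, against 4.00, 3.74, 3.95 and 4.11 in controls 1 to 4. PNFLX 1 and 4 lay above every control, and PNFLX 3 lay among them. The means were 4.27 ± 0.32 in PNFLX and 3.95 ± 0.15 in control (SD, n = 4 each), a log2 difference of 0.32 (SE 0.19, 95% interval -0.11 to 0.74, adjusted p = 0.52).

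In row 190 the same sequence gave 4.30, 3.91 and 3.09 in PNFLX 1 to 3, against 4.06, 3.56, 3.87 and 3.69 in controls 1 to 4. The spot of PNFLX 4 carried an outlier flag and was left out of the fit, and it read 3.67. PNFLX 1 was above every control and PNFLX 3 below all of them. The log2 difference was -0.03 (SE 0.29, 95% interval -0.72 to 0.66, adjusted p = 0.978).

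Because both spots hold 1 sequence, their difference within an array is a measure of error. Row 181 minus row 190 was 0.04, 0.19 and 0.85 in PNFLX 1 to 3 and 1.02 in PNFLX 4 with its flagged spot, against -0.05, 0.19, 0.08 and 0.42 in controls 1 to 4. The copies were thus within 0.19 of each other on 5 arrays and furthest apart on PNFLX 3 and 4. The groups differed by 0.21 in this measure over the 7 unflagged arrays (exact permutation test over 35 splits, p = 0.486, adjusted 0.486).

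**Figure D3:**
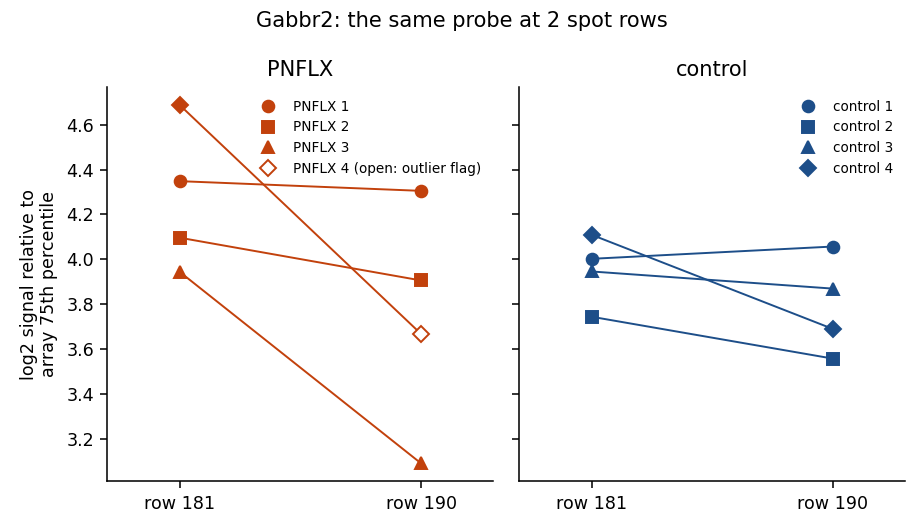
Log2 signal, relative to the array's 75th percentile, of the Gabbr2 sequence at spot rows 181 and 190, with PNFLX samples in the left panel and control samples in the right. Each line joins both spots of 1 sample, and the open symbol is the flagged spot of PNFLX 4. The lines of PNFLX 3 and 4 drop by 0.85 and 1.02, and those of the controls change by 0.42 or less.

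Other repeated probes show how usual this is. The array held 1488 pairs of spots with identical sequence among the probes tested, and the log2 differences of the groups in both copies lay apart by a median of 0.22. For the 132 pairs with a copy in the first or last 5 spot rows the median was 0.972, and for the other 1356 it was 0.197. The Gabbr2 copies, at 0.32 and -0.03, lay 0.345 apart. Of the pairs with a copy in an end row, 77.3% lay at least as far apart, and of the others 29.7%.

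On mean brightness both Gabbr2 spots were lower in PNFLX, at -0.38 (SE 0.18, adjusted p = 0.284) in row 181 and -0.95 (SE 0.24, adjusted p = 0.0831) in row 190. The ratio of processed signal to mean brightness was 1.35 to 1.78 in PNFLX and 0.837 to 1.01 in controls for row 181. For row 190 it was 1.62 to 2.41 in PNFLX and 0.828 to 1.33 in controls. The sign of the difference thus turned with the signal used in row 181 and was below 0 with both in row 190. Gabbr1 of row 113 minus Gabbr2 of row 181 within each array was -2.41 ± 0.50 in PNFLX and -2.16 ± 0.23 in control (SD, n = 4 each), a difference of -0.25 (exact permutation test, p = 0.486, adjusted 0.486).

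**Figure D4:**
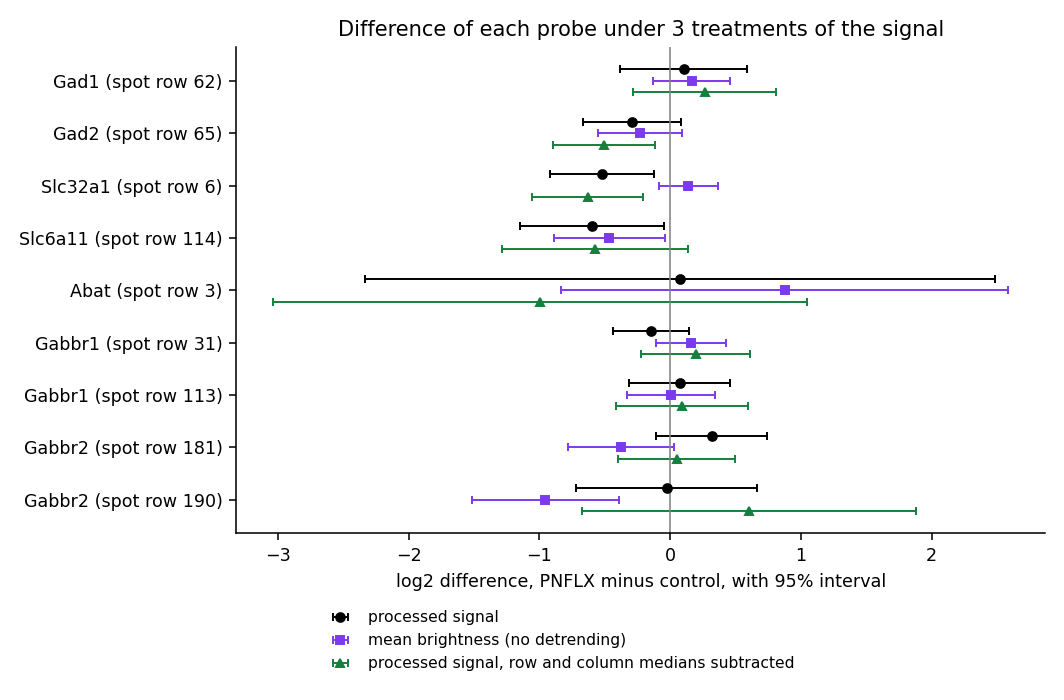
Log2 difference of each of the 9 probes, PNFLX minus control, with its 95% interval, from the processed signal (circles), from mean brightness (squares) and from the processed signal after subtraction of row and column medians (triangles). Slc6a11 and Gad2 stay left of 0 and Gad1 right of 0 under all 3, and Gabbr1 of row 113 does as well, while Slc32a1, Abat, Gabbr1 of row 31 and both Gabbr2 spots change side.

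Partners and effectors of the GABA-B receptor were measured for all 19 of the 22 listed genes that are on the array. A total of 7 were higher and 12 lower in PNFLX, with a median of -0.08 and 0 past the threshold. For 3 of the 19 the groups did not overlap, against 10.7% of all probes. Of these 3, Kctd12 and Ddit3 were lower in PNFLX. The third, Rgs7, was higher by a log2 difference of 0.58 (SE 0.29, adjusted p = 0.457) and was named after its values were seen. PNFLX 4 held the lowest value of the 8 arrays for 8 of the 19. That array held the lowest value for 5 of 10 oligodendrocyte, 4 of 10 microglia and 3 of 7 glutamatergic neuron markers. It did so for 2 of the 14 glutamate and glutamine supply genes and 0 of the 13 GABA-A receptor subunits. The median of the deposited values was also lowest on PNFLX 4, at -0.13. The share of all probes that were lowest on PNFLX 4 was not counted. Kctd12, an auxiliary subunit that speeds desensitisation of the receptor, had -2.97, -4.61, -3.08 and -4.39 in PNFLX 1 to 4, against -2.60, -1.43, -2.37 and -2.27 in controls. Every PNFLX sample lay below every control, with a log2 difference of -1.60 (SE 0.44, adjusted p = 0.186) in spot row 13, and -0.40 (SE 0.22) on mean brightness. Kcnj3, a subunit of the potassium channel opened by GABA-B receptors, had a difference of -0.24 (SE 0.27, adjusted p = 0.736). Ddit3, a stress-response transcription factor reported to bind the receptor, had -0.31 (SE 0.14, adjusted p = 0.411), also with no overlap, and -0.75 (SE 0.22) on mean brightness. Its spot was in row 180, and the cause of the change was not tested.

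GABA-A receptor subunits, the fast arm of GABA signalling, were measured for 13 of the 18 on the array. A total of 8 were higher and 5 lower, with a median of 0.07, and 0 passed the threshold. An unadjusted p under 0.05 was reached by 3 of the 13, against 12.5% of all probes. Gabra4, a subunit common in extrasynaptic receptors of the dentate gyrus, had -1.96, -1.18, -1.10 and -1.42 in PNFLX, against -0.77, -0.08, -0.71 and -0.88 in controls. Its groups did not overlap and its difference was -0.80 (SE 0.25, adjusted p = 0.242), but on mean brightness it was 0.12 (SE 0.21). The spot was in row 18, and the cause of the turn was not tested. Gabrq had a difference of 0.54 (SE 0.21, adjusted p = 0.344), with PNFLX 4 at 0.91 below controls 2 and 3.

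Genes of the inhibitory synapse and of chloride transport, which sets the direction of GABA-A currents, were measured for all 16 of the 19 listed that are on the array. A total of 7 were higher and 9 lower, with a median of -0.03 and 0 past the threshold. Slc12a5, the chloride extruder of mature neurons, was lower in PNFLX by a log2 difference of -0.45 (SE 0.23, adjusted p = 0.478), and Gphn, the scaffold gephyrin, had -0.05 (SE 0.26, adjusted p = 0.948). Clcn3, a chloride and proton exchanger of intracellular membranes, had -0.75 (SE 0.32, adjusted p = 0.387), and Nrxn2, a presynaptic adhesion protein, had -0.27 (SE 0.14, adjusted p = 0.474). PNFLX 4 held the lowest of the 8 values for 6 of the 16 genes, and the share over all probes was not counted.

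**Figure D5:**
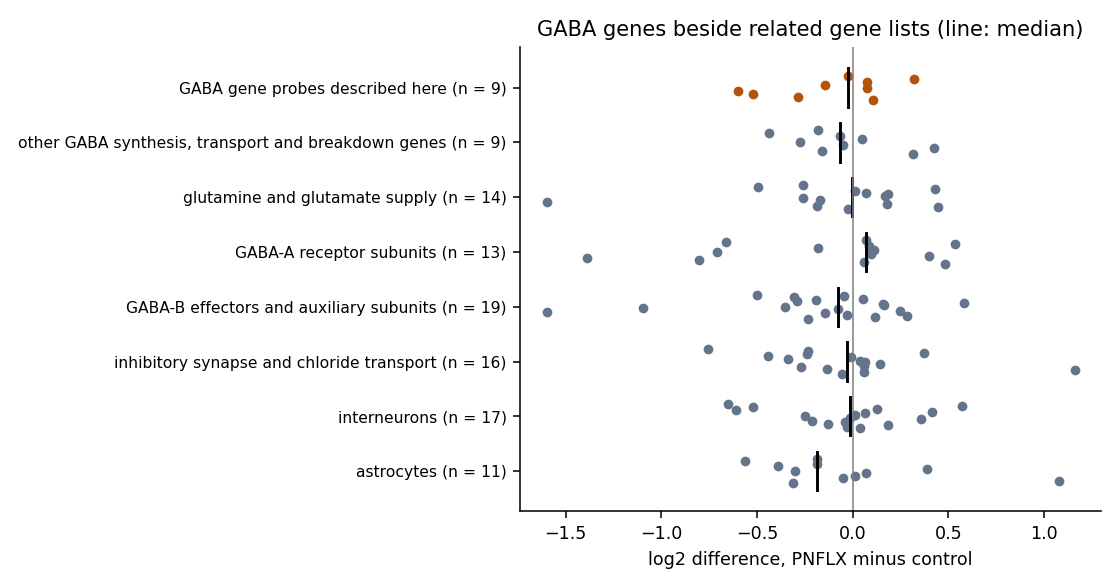
Log2 difference, PNFLX minus control, of the 9 GABA gene probes (top) and of the brightest probe of each gene in 7 related lists, with a line at the median of each. The medians lie between -0.19 for astrocyte markers and 0.07 for GABA-A receptor subunits, and each set spreads to both sides of 0.

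For each of the 7 genes the named genes whose brightest probe ran most alike over the 8 arrays were looked up among 7260 genes, as a description with no test, since arrays share their scaling and spots share their position. For Gad1 they were Cul1 (Pearson r 0.967) and Slc46a3 (0.956), and for Gad2 they were Rpl23 (0.970) and Tmem14c (0.960). For Slc32a1 they were Capns1 (0.980) and Acvr1c (0.973), whose spots lay in rows 17 and 11, near row 6 of Slc32a1. For Slc6a11 they were Dyrk1b (0.990) and Akp3 (0.982), and for Abat they were Ngef (0.991) and Npas1 (0.976), of which Npas1 also lay in row 3. For Gabbr1 they were Or9s13 (0.955) and Gabra3 (0.943), and for Gabbr2 they were Cdk12 (0.985) and Slc4a3 (0.959). None of the 7 genes was among these nearest genes of another.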

How the data were processed

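Cy3-labelled RNA of whole hippocampi was measured on 8 custom Agilent arrays of 1 colour, per the labels' protocols. Group and replicate number came from the source names. Sample descriptions give final dosing days of 21 to 28, rising by sample, where the protocol states day 21, which was used. The intensity values of each spot were made by the authors with Agilent Feature Extraction 10.5.1.1, per the file headers, without normalization between arrays. The authors also deposited log2 values, which equal the processed signal over the 75th percentile of its array after centring of each probe on its median over arrays, to within 0.00242. Their scale and centring are therefore known, and the medians by column were -0.04, -0.07, 0.10 and -0.13 in PNFLX 1 to 4 and 0.06, -0.05, 0.04 and 0.04 in controls 1 to 4.

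Here log2 processed signal was scaled to the 75th percentile of the 15207 rat probes. Outlier flags removed 521 spots, and the 11600 probes well above background on 4 or more of 8 arrays were tested. The test was limma 3.58.1 under R 4.3.3 with group as the only term (two-sided, Benjamini-Hochberg over the 11600, threshold 0.05). It gives every adjusted p of a probe, and SE is its moderated standard error. The fit was tested on simulated data. Symbols came from a RefSeq gene table (assembly GRCr8, no coordinates taken), which matched 14148 probes. The genes, lists and tests were chosen with earlier results of these data known. Named were every probe of the 7 genes, the 2 genes of smallest p in each pathway list, a set of fixed genes, and for each of the 7 the 2 genes most like it; 1 gene that this rule names is not reported here. Lists are described by the brightest probe of each gene. Alternatives covered background, scaling, filters, flags, spot position, the deposited table, variance trend, replicate block and leaving out each sample. Mean brightness, leaving out 20 spot rows at each end, and normexp without control 1 were added after seeing the data. The replicate number equalled the slide column on all 8 arrays, so the replicate block is a block of slide column. The labels do not say that these numbers pair animals. Deviations of same-numbered samples correlated at 0.008, 0.084, 0.092 and 0.022. The part of slide column in the values was not tested.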

Additional observations from a re-analysis of the deposited data

Results flagged for a closer look

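In 60 groups of 4 samples tested with Dixon's criterion at 95%, 4 held a sample far from the other 3, where chance gives about 1 in 20. The Abat value of PNFLX 4, at -4.90, lay far below those of PNFLX 1 to 3, and the brightness of its spot before correction was also the lowest of the 8. The Slc6a11 value of control 2, at -3.49, lay below those of the other controls and within the PNFLX range. Among the related genes, Gabrq in PNFLX 4 was at 0.907 and Gphn in PNFLX 4 at -4.41, both below the other PNFLX samples.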

How the results depend on the processing

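Under each of the 24 alternatives 0 of the GABA gene probes tested passed the threshold, but not every probe was tested in each. Leaving out 5 spot rows at each end removed Abat and Gabbr2 of row 190. Leaving out 20 also removed Slc32a1 and Gabbr2 of row 181. The brightest probe of each gene left out Gabbr1 of row 31 and Gabbr2 of row 190. In both settings without end rows 0 of all probes passed, so their 0 says nothing particular of the GABA genes. Of the 24 alternatives, 3 were chosen after seeing the data: mean brightness, the first and last 20 spot rows left out, and normexp without control 1. Over all probes 78 passed, and 50 did with normexp background correction, 143 with no scaling, 46 with no filter on dim probes, 47 with probes well above background on all arrays, 49 with the brightest probe of each gene, 24 with row and column medians subtracted, 450 on mean brightness, and 358 with normexp without control 1. With the first and last 5 spot rows left out 0 passed (1261 at an unadjusted p under 0.05), and with the first and last 20 left out 0 passed (942 at that p). Leaving out 1 sample gave 33 to 104. The median of all probes was -0.38 with normexp and 0.26 with no scaling, against -0.03. Of the calls, 43 of 78 were higher in PNFLX, against 120 of 143 with no scaling, 14 of 50 with normexp, 16 of 24 with row and column medians subtracted and 33 of 46 with no filter. The replicate block, which is a block of slide column, gave 13 calls and 0 GABA gene probes. Replicates 2 and 3 alone correlated best with their own number.

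Signs turned as follows, in log2 difference. With normexp Gad1 was at -0.018, Slc32a1 at 0.44, Gabbr2 of row 181 at -0.065 and Sst at 0.28. In that setting control 1 stood apart, and without it Slc32a1 was at 0.15, Gabbr1 of row 31 at 0.10, Gabbr2 of row 181 at -0.35, Gls2 at -0.17, Gabra4 at 0.11, Aldh5a1 at 0.026 and Sst at 0.078. With no scaling Gad2 was at 0.0077, Gabbr1 of row 31 at 0.15, Gabbr2 of row 190 at 0.26, Nrxn2 at 0.027, Aldh5a1 at 0.25, Gphn at 0.24, Sst at 0.26 and Kcnj3 at 0.061. With row and column medians subtracted Abat was at -0.99, Gabbr1 of row 31 at 0.19, Gabbr2 of row 190 at 0.60, Aldh5a1 at 0.37 and Pvalb at -0.21. On mean brightness Slc32a1 was at 0.14, Gabbr1 of row 31 at 0.16, Gabbr2 of row 181 at -0.38, Gls2 at -0.10, Gabra4 at 0.12, Aldh5a1 at 0.040 and Gphn at 0.022, and Pvalb passed the threshold at 0.50. Gabbr2 of row 190 was at 0.041 with quantile normalization. The cause of these turns was not tested.

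The within-array comparison of Gabbr1 with Gabbr2 turned to 0.35 with normexp, 0.039 with row and column medians subtracted and 0.38 on mean brightness. That of Slc32a1 with Gad1 turned to 0.46 with normexp, that of both Gabbr1 probes to -0.10 with row and column medians subtracted and -0.15 on mean brightness, and that of the Gabbr2 copies to -0.70 with row and column medians subtracted. The cause was not tested. Leaving out 1 sample gave -0.027 to 0.28 for Gad1, -0.34 to 1.25 for Abat, -0.016 to 0.16 for Gabbr1 of row 113, -0.30 to 0.31 for Gabbr2 of row 190, -0.25 to 0.073 for Aldh5a1, -0.21 to 0.16 for Gphn, -0.050 to 0.12 for Pvalb, -0.29 to 0.15 for Sst, -0.37 to 0.0099 for Kcnj3 and -0.040 to 0.36 for the Gabbr2 copies. The processed signal was 0.523 to 0.592 of the brightness in PNFLX and 0.568 to 0.644 in controls for Slc6a11, and 0.596 to 0.627 in PNFLX and 0.649 to 0.968 in controls for Gabbr1 of row 31. The differences of these low probes were -0.93 and -0.46 with normexp. Without control 1, which stood apart in that setting, they were -0.43 and 0.10.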
